A study of Oryctolagus cuniculus with 35 samples.

Results

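IL1B, IL1R2 and IL18R1 are 3 genes of the interleukin 1 (IL-1) and interleukin 18 (IL-18) axis, and they were taken by symbol from lung RNA sequencing tables of 23669 rabbit genes. All 3 were found once each, as ENSOCUG00000023958 (IL1B), ENSOCUG00000016746 (IL1R2) and ENSOCUG00000016476 (IL18R1). The 35 lungs were from New Zealand rabbits, 7 in each of 5 groups, and each rabbit gave 1 library per the study's design text. Healthy replicates 6 and 7 carry titles that begin with the same letter and number as those of ceftaroline replicates 5 and 7, and the labels do not say what these letters and numbers stand for. Of the 4 pneumonia groups, one received ceftaroline (a cephalosporin antibiotic, given into muscle as ceftaroline fosamil, 20 mg/kg) together with mesenchymal stromal cells (MSC, here from human umbilical cord, infused into a vein at 3000000 cells per kg). The others received ceftaroline alone, MSC alone, or saline (NaCl). These 4 groups shared pneumococcal pneumonia and adverse mechanical ventilation, a ventilator setting that injures the lung, so infection and ventilation cannot be told apart in them. Treatment was given 4 h after the bacteria. The fifth group was healthy rabbits given saline. Lung was taken at 24 h after inoculation, or at death where a rabbit died earlier, and which rabbits died early is not given in the labels.

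Interleukin 1 beta, the product of IL1B, is made as an inactive precursor by macrophages, monocytes and neutrophils, and is released in active form after cleavage by caspase-1 in the inflammasome. It acts on IL1R1, which pairs with the accessory chain IL1RAP and signals through MyD88. IL1R2 binds the same cytokine but lacks a signalling domain, so it is known as a decoy receptor, and in mammals neutrophils and some macrophages are rich in it. IL18R1 is the ligand-binding chain of the receptor for IL-18, pairs with IL18RAP, and is known from T cells, NK cells and other leukocytes. In the rabbit gene order of RefSeq (assembly mOryCun1.1), IL18RAP, IL18R1, IL1RL1, IL1RL2, IL1R1 and IL1R2 are neighbours, and IL1B stands in the cluster of IL-1 family ligands.

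Levels are given in normalized reads, which are reads per gene divided by a size factor that brings all 35 libraries to a common scale. They are not divided by gene length, so levels of different genes are not compared. A library held between 7567008 and 33209729 recovered reads (median 11137017). Depth differed between groups, with medians of 15675806 in ceftaroline and 12927861 in ceftaroline plus MSC libraries. The medians were 10577412 in MSC, 9527492 in NaCl and 9731971 in healthy libraries. A 2-letter title ending (PD or PG, meaning not given) marks 5 healthy, 3 NaCl and 2 MSC libraries and no library of the other groups. PD stands on healthy libraries only, and PG on healthy replicate 6 and on every NaCl and MSC library with an ending. Both endings were treated as one, so among libraries with an ending its kind largely follows the group. Healthy replicates 1 and 5 are the only healthy libraries without an ending. Those with an ending are replicates 5, 6 and 7 of NaCl and replicates 6 and 7 of MSC. The lung label was checked against markers: 5 of 10 listed epithelial genes in the tables had reads, while SFTPC, ABCA3, FOXJ1, SCGB1A1 and SFTPD were listed at 0 in every library. Of the 23669 genes, 10217 were at 0 in every library, so a 0 is not read as absence from the lung. These are bulk lung pieces, so fewer cells of a type and less RNA per cell cannot be told apart.

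IL1B spanned 195 to 6150 normalized reads in ceftaroline plus MSC lungs, with a median of 2878. It spanned 737 to 28556 in ceftaroline lungs (median 3131) and 337 to 18666 in MSC lungs (median 3396). In NaCl lungs it spanned 2281 to 41106 (median 5980), against 193 to 362 in healthy lungs (median 251). Every NaCl and ceftaroline lung lay above every healthy lung. In ceftaroline plus MSC lungs, replicates 5 and 6, at 210 and 195, lay inside the healthy range, as did MSC replicate 6 at 337.

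IL1R2 spanned 131 to 4523 normalized reads in ceftaroline plus MSC lungs, with a median of 1298. It spanned 1002 to 18961 in ceftaroline lungs (median 8410) and 236 to 16740 in MSC lungs (median 3422). In NaCl lungs it spanned 1764 to 40313 (median 13894), against 58.1 to 494 in healthy lungs (median 127). By median the groups ranked in the order NaCl, ceftaroline, MSC, ceftaroline plus MSC and healthy. Ceftaroline plus MSC replicates 3, 5 and 6, at 198, 186 and 131, and MSC replicate 6 lay inside the healthy range. The upper end of that range was healthy replicate 7 alone. The next healthy lung was at 208, below MSC replicate 6 at 236. Healthy replicate 7 was also the highest healthy lung for IL1B (362) and IL18R1 (42.2).

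IL18R1 was covered by 11 to 306 recovered reads per library, so its values carry more counting error than those of the other genes. It spanned 37.3 to 67.8 normalized reads in ceftaroline plus MSC lungs (median 51.3) and 95.6 to 123 in ceftaroline lungs (median 114). It spanned 30.2 to 168 in MSC lungs (median 66.1). In NaCl lungs it spanned 53.0 to 391 (median 107), against 17.3 to 42.2 in healthy lungs (median 21.6). NaCl replicate 4, at 391, was the highest of its group, with replicate 3 next at 127. The 3 ceftaroline plus MSC lungs with IL1R2 in the healthy range were not the 3 lowest for IL18R1: replicates 3, 5 and 6 had 64.6, 37.3 and 51.3.

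**Figure D1:**
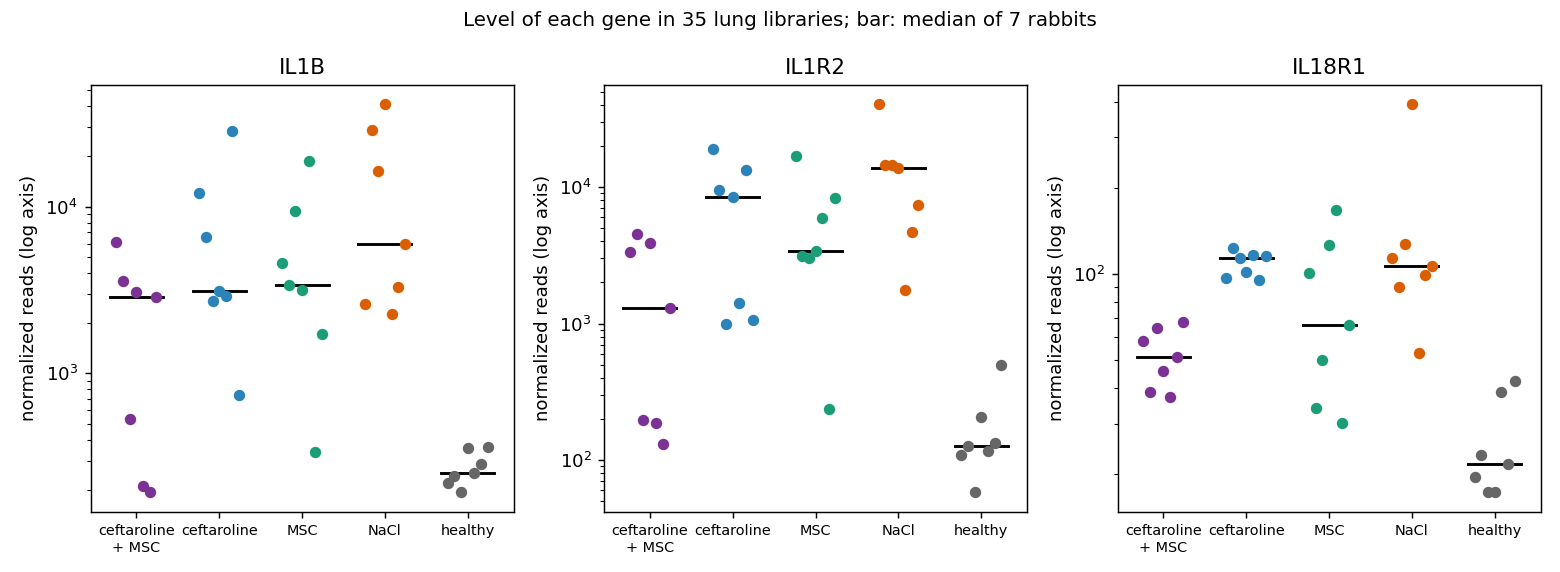
Normalized reads (log axis) of IL1B, IL1R2 and IL18R1 in each of 35 lung libraries, by group, with a bar at the median of 7 rabbits. Every ceftaroline lung lies above every ceftaroline plus MSC lung for IL18R1 (lowest 95.6, against a highest of 67.8), while the groups overlap for IL1B and IL1R2.

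The first comparison set pneumonia with ventilation against healthy lung, and all 3 genes rose in NaCl lungs. On the log2(value + 1) scale of the deposited table, IL1B was higher by 4.94 ± 0.58 (log2 fold change ± SE, adjusted p = 3.9e-06). IL1R2 was higher by 6.05 ± 0.57 (adjusted p = 4.74e-07) and IL18R1 by 2.22 ± 0.36 (adjusted p = 6.67e-05). The NaCl and healthy lungs did not overlap for any of them. In this comparison 60.6% of the 9545 tested genes were called, so a call as such is common here. Among libraries with a title ending the changes were 3.68, 4.63 and 1.81 for IL1B, IL1R2 and IL18R1, and among those without it 6.01, 7.35 and 2.41, all past the threshold. Beside these, the summed level of 8 neutrophil markers with reads spanned 179525 to 1620670 in NaCl lungs, against 17126 to 119348 in healthy lungs, with CSF3R, MMP9 and PGLYRP1 listed at 0. S100A9 made up 60.9% and S100A8 35.6% of the neutrophil sum. Summed monocyte and macrophage markers, 9 with reads, spanned 12472 to 71651 in NaCl lungs, against 6023 to 10235 in healthy lungs. CD14 made up 44.3% of this sum. Of these 9 markers 5 rose, while VSIG4 (-0.88), C1QA (0.19), C1QB (1.18) and MARCO (1.77) missed the threshold. Summed lung epithelial markers spanned 32762 to 166753 in NaCl lungs, against 196859 to 303519 in healthy lungs. Of 6 tested T and NK cell markers, 1 fell, CD247 (-1.85), and the other 5 had values from 0.07 to 0.98 that missed the threshold. Their sum, of which CD247 made up 37.4%, had a median of 607 in NaCl lungs and 1251 in healthy lungs. The part of these cell classes in the rise was not tested. An S00 mark in the sample names, of unstated meaning, stands on all 7 healthy libraries and 1 NaCl library, so it cannot be told apart from the healthy group.

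The family moved unevenly in NaCl against healthy lungs. Of 6 tested ligands and soluble antagonists, IL1B among them, 5 rose and 1 fell, while 60.6% of all tested genes were called. Their median log2 fold change was 4.56 against 0.00 over all genes tested. IL1A, the alpha form of interleukin 1, rose by 6.20 and IL36A, an interleukin 36 cytokine, by 7.66. The antagonists rose too, IL1RN (the receptor antagonist) by 4.19 and IL18BP (the protein that binds IL-18) by 3.09. IL18 itself fell by 0.91 (adjusted p = 0.00247). IL36G and IL36RN had reads but missed the filter on low values, and so did IL1F10.

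Of 6 tested receptors, IL1R2 and IL18R1 among them, 5 rose, beside the 60.6% of all tested genes called. Their median log2 fold change was 2.86. IL1R1, the signalling receptor, rose by 1.58, and its accessory chain IL1RAP by 3.96. IL18RAP, the accessory chain of the IL-18 receptor, rose by 3.49. IL1RL1, the receptor for interleukin 33, had a log2 fold change of 0.66 that missed the threshold (adjusted p = 0.108).

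Of 7 tested signalling genes 3 rose and 1 fell, and of 3 tested inflammasome and release genes 1 rose and 1 fell, shares near the 60.6% of all tested genes. The inhibitory kinase-like IRAK3 rose most, by 1.78, and TAB1, a partner of the kinase MAP3K7, fell by 1.66. Of the release genes NINJ1, which acts in membrane rupture, rose by 1.29, and P2RX7, an ATP-gated channel, fell by 1.63. Of 4 tested response genes 3 rose, led by PTGS2, the inducible cyclooxygenase, at 5.61. MYD88, IRAK1, IRAK2, NLRP3, PYCARD and GSDMD were among the 10217 genes at 0 in every library, which left them untested.

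The treated pneumonia groups were also set against healthy lungs, and all 3 genes were higher in each. In ceftaroline plus MSC lungs IL1B was higher by 2.21 ± 0.71 (adjusted p = 0.0239), IL1R2 by 2.58 ± 0.84 (adjusted p = 0.0241) and IL18R1 by 1.04 ± 0.24 (adjusted p = 0.00498), where 41.3% of tested genes were called. With title ending as a covariate, and equally among the 9 libraries without an ending, the changes were 2.39, 2.93 and 0.86. No ceftaroline plus MSC library has an ending, so both settings took these changes against healthy replicates 1 and 5 alone. None of the 3 calls held there, at adjusted p of 0.161, 0.144 and 0.133 with the covariate and of 0.268, 0.226 and 0.149 without endings. Calls over all genes numbered 847 with the covariate and 73 without endings, against 4052 with all lungs. The IL1B call was lost without ceftaroline plus MSC replicate 1 (1.82), 4 (1.98) or 7 (2.00), and the IL1R2 call without replicate 1 (2.25), 2 (2.18) or 4 (2.22).

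In ceftaroline lungs IL1B was higher than in healthy lungs by 4.09 ± 0.58 (adjusted p = 5.84e-05), IL1R2 by 4.91 ± 0.70 (adjusted p = 5.62e-05) and IL18R1 by 2.12 ± 0.22 (adjusted p = 5.76e-06). No ceftaroline lung overlapped the healthy ones for these genes, and 57% of tested genes were called. Among libraries without a title ending the changes were 4.28, 5.26 and 1.94, and all passed. In MSC lungs IL1B was higher by 3.66 ± 0.63 (adjusted p = 0.000318), IL1R2 by 4.59 ± 0.72 (adjusted p = 0.000192) and IL18R1 by 1.47 ± 0.38 (adjusted p = 0.00468), with 51.7% of tested genes called. Among libraries without an ending the MSC changes were 4.70, 5.46 and 1.53, of which IL18R1 missed (adjusted p = 0.0925). Among libraries with an ending, 2 MSC and 5 healthy, they were 1.44, 3.13 and 0.93, and none passed (adjusted p of 0.110, 0.113 and 0.212). These 3 comparisons and that of NaCl share the healthy lungs.

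**Figure D2:**
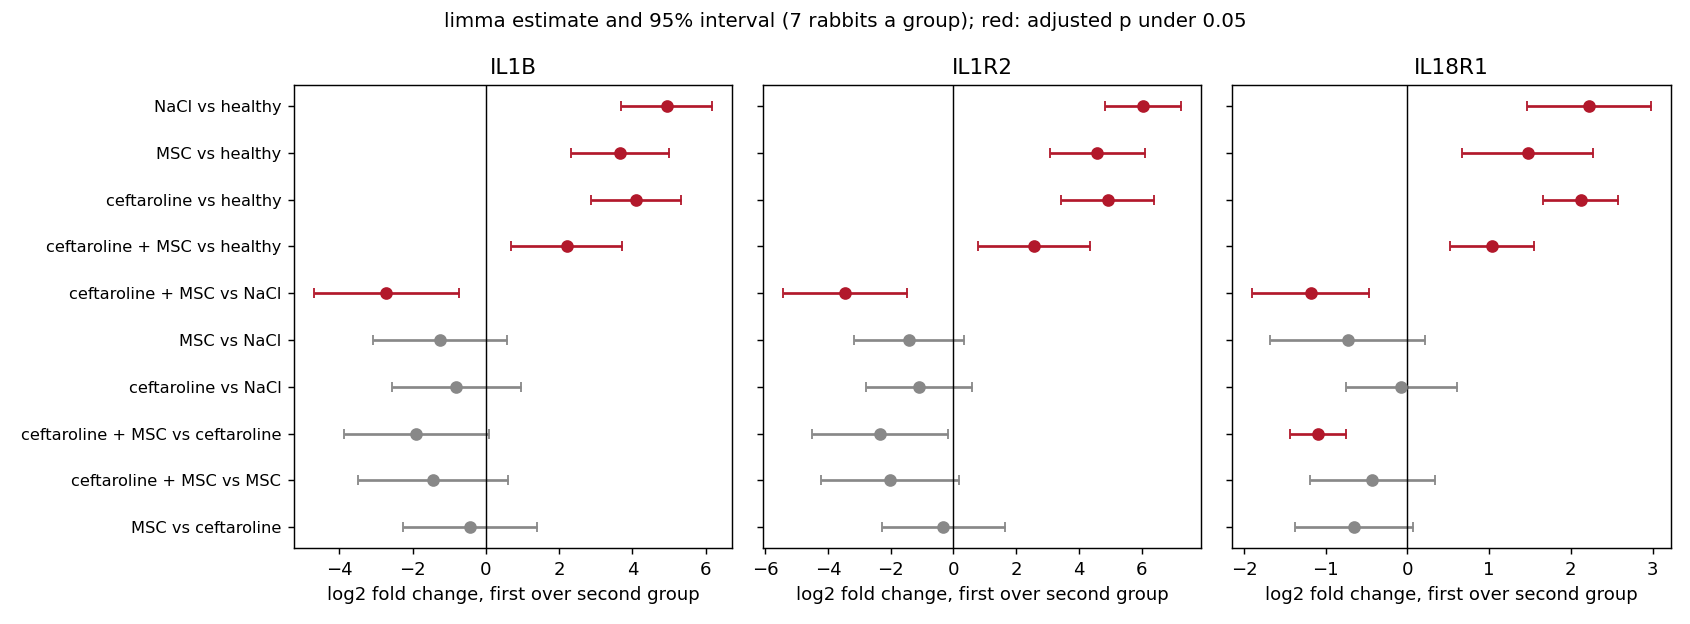
Log2 fold change of the first over the second group (x axis) with its 95% interval from limma, for each of 10 group pairs, 7 rabbits a group; red points have an adjusted p under 0.05. All 4 pneumonia groups are higher than healthy lungs for the 3 genes, and IL18R1 alone is red for ceftaroline plus MSC against ceftaroline.

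MSC added to ceftaroline was tested against ceftaroline alone, and IL18R1 fell in it. In the deposited table IL18R1 averaged 68.8 ± 16.1 normalized reads in ceftaroline plus MSC lungs and 144.6 ± 14.6 in ceftaroline lungs (SD, n = 7 each). The log2 fold change was -1.09 ± 0.16 (95% interval -1.43 to -0.75, adjusted p = 0.0243), and the groups did not overlap. Only 0.0403% of the 9924 tested genes were called, 4 in number, and IL18R1 was the third by p. The others, chosen here after their values were seen, were SEC62, ENSOCUG00000021154 and ENSOCUG00000027927, all 3 higher.

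The authors' deposited table gave IL18R1 a log2 fold change of -1.06 with an adjusted p of 2.12e-08. edgeR called it at an adjusted p of 0.0314. The call was lost in one fit of all 5 groups (-1.08, adjusted p = 0.325). It was also lost on leaving out ceftaroline replicate 2, 3, 5 or 7, with changes of -1.06, -1.07, -1.07 and -1.08. The same held for ceftaroline plus MSC replicate 2, 4, 5 or 6, with changes of -1.02, -1.06, -1.01 and -1.09, so the size stayed near that of the full set while the adjusted p reached 0.0950. No library of either group has a title ending.

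IL1B and IL1R2 had larger but far more variable differences in mean log2 level between ceftaroline plus MSC and ceftaroline lungs. On the common scale the IL1B medians were close, at 2878 in ceftaroline plus MSC and 3131 in ceftaroline lungs. For IL1R2 the medians were 1298 and 8410. The log2 fold change was -1.89 ± 0.93 for IL1B (95% interval -3.89 to 0.10, adjusted p = 0.435) and -2.34 ± 1.02 for IL1R2 (95% interval -4.51 to -0.17, adjusted p = 0.426). Neither passed, and their groups overlapped. IL18R1 was the 1 gene called among the tested ligands, receptors, signalling, inflammasome and response genes. Of the T and NK cell markers 6 had reads, with CD3E and NKG7 at 0. Their sum spanned 443 to 979 in ceftaroline plus MSC lungs (median 776), against 566 to 1068 in ceftaroline lungs (median 755). Summed neutrophil markers spanned 19493 to 555652 in ceftaroline plus MSC lungs (median 122642), against 56333 to 1668230 in ceftaroline lungs (median 314751). The part of these cells in the IL18R1 difference was not tested.

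The combined treatment was also set against NaCl, a pair for which the deposited tables hold no fold change. All 3 genes fell in ceftaroline plus MSC lungs, where 27% of the 9692 tested genes were called. IL1B was lower by 2.72 on the log2 scale (log2 fold change -2.72 ± 0.92, adjusted p = 0.0409). IL1R2 had a log2 fold change of -3.46 ± 0.92 (adjusted p = 0.0142) and IL18R1 of -1.18 ± 0.34 (adjusted p = 0.0195). Although these passed, the ranges of the groups overlapped for each gene. Among libraries without a title ending the changes were -3.61, -4.42 and -1.55, and all passed. The IL1B call was lost without NaCl replicate 2 (-2.41), 3 (-2.55), 4 (-2.33) or 7 (-2.79). It was lost as well without ceftaroline plus MSC replicate 3 (-2.52), 5 (-2.29) or 6 (-2.28).

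Of 6 tested ligands and antagonists 2 fell, IL1B and IL36A (-3.65), and of 6 tested receptors 3 fell, IL1R2, IL18R1 and IL18RAP (-2.51). Apart from IL1B, IL1R2 and IL18R1 themselves, 2 of 9 tested ligands, antagonists and receptors passed, a share no higher than the 27% of all tested genes. IL1R1 (-0.90), IL1RAP (-1.55), IL1A (-2.18) and IL1RN (-1.53) missed the threshold. Of 6 tested response genes 4 fell, with PTGS2 at -3.76. Of 7 tested signalling genes 1 rose, TAB1 by 1.21, and 2 fell. NINJ1 (-0.40), P2RX7 (0.85) and NEK7 (0.03), a kinase that binds NLRP3, missed the threshold. Of 6 tested neutrophil markers 5 fell, and their part in the fall of IL1B, IL1R2 and IL18R1 was not tested.

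**Figure D3:**
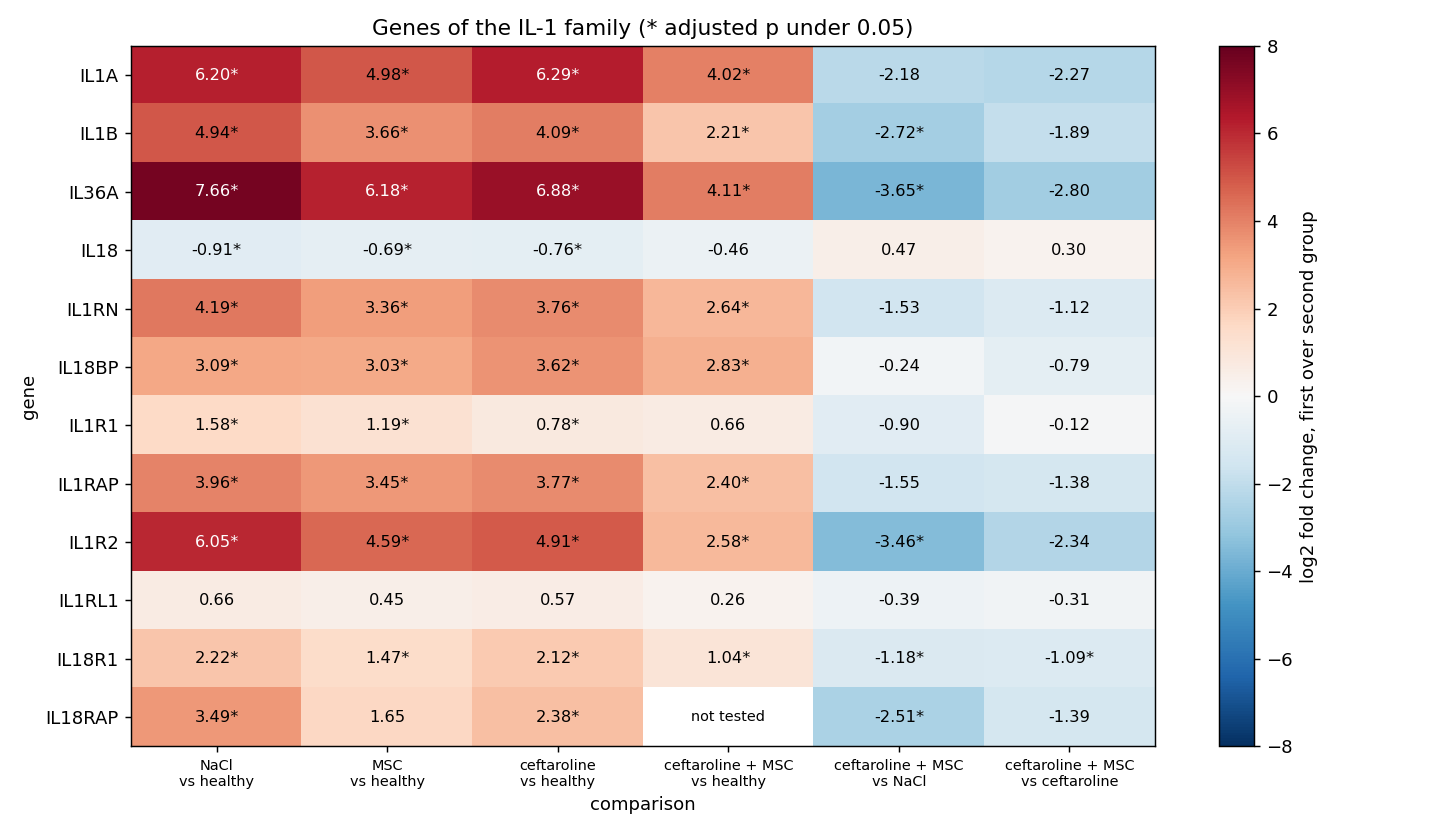
Log2 fold change of 12 ligand, antagonist and receptor genes (rows) in 6 comparisons (columns), first over second group, with color and number giving the change and a star an adjusted p under 0.05. IL18 is negative in the 4 comparisons with healthy lungs and starred in 3, while IL18R1 is the only starred gene of ceftaroline plus MSC against ceftaroline.

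Neither single treatment changed any of the 3 genes beyond the threshold against NaCl. For MSC the log2 fold change was -1.25 ± 0.86 for IL1B, -1.43 ± 0.82 for IL1R2 and -0.73 ± 0.45 for IL18R1 (adjusted p of 0.470, 0.377 and 0.408). The 95% intervals ran from -3.08 to 0.59, from -3.18 to 0.32 and from -1.68 to 0.22. limma called 0% of the 9446 tested genes, 0 in number, while 1672 had an unadjusted p under 0.05, edgeR called 0 and DESeq2 335. Without MSC replicate 6 IL1B was -0.69 and IL1R2 -0.78, and without NaCl replicate 4 IL18R1 was -0.44. The changes were -1.28, -1.87 and -0.86 among libraries without a title ending and -2.21, -1.46 and -0.85 among the 5 with one.

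For ceftaroline against NaCl the log2 fold change was -0.81 ± 0.82 for IL1B, -1.10 ± 0.80 for IL1R2 and -0.08 ± 0.32 for IL18R1 (adjusted p of 0.631, 0.489 and 0.921). The 95% intervals ran from -2.56 to 0.95, from -2.80 to 0.60 and from -0.76 to 0.60. limma again called 0% of genes, 0 of 9614, with 1760 at an unadjusted p under 0.05, none by edgeR and 519 by DESeq2. Without NaCl replicate 1 limma called 189 genes, none of the 3 among them. Without NaCl replicate 4 the IL18R1 value was 0.21, and leaving out 1 lung at a time gave -1.24 to -0.37 for IL1B and -1.51 to -0.75 for IL1R2. Among libraries without an ending the changes were -1.70, -2.06 and -0.45.

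Setting the combined treatment against MSC alone gave -1.45 ± 0.96 for IL1B, -2.01 ± 1.03 for IL1R2 and -0.43 ± 0.36 for IL18R1, none of which passed (adjusted p of 0.600, 0.533 and 0.670), where 0.0413% of tested genes were called. Among libraries without a title ending these were -2.32, -2.53 and -0.68. MSC against ceftaroline gave -0.43 ± 0.86, -0.33 ± 0.92 and -0.65 ± 0.34, at an adjusted p of 1.00 for each, where 0.0104% were called, a single gene, CCN3. IL1B and IL1R2 turned to 0.43 and 0.20 among libraries without a title ending, and IL18R1 was -0.40 there. Without MSC replicate 6 they were 0.12 and 0.32, IL1B was 0.01 without ceftaroline replicate 6, and IL1R2 was 0.03 without ceftaroline replicate 1. The 95% intervals with all lungs were wide, at -2.27 to 1.40 for IL1B, -2.28 to 1.63 for IL1R2 and -1.37 to 0.07 for IL18R1.

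Whether the MSC effect differed with the antibiotic was tested as an interaction, the effect of MSC with ceftaroline minus that without it. It was -0.63 ± 1.32 for IL1B, -0.89 ± 1.36 for IL1R2 and -0.33 ± 0.49 for IL18R1, and among libraries without a title ending -0.59, -0.45 and -0.21. None of the 3 genes passed, and 0.0099% of tested genes were called, a single gene, SEC62. That number was 42 without title endings, 21 with the ending as a covariate, 43 with DESeq2, and up to 14 on leaving out NaCl replicate 5. The 95% interval for IL18R1 ran from -1.33 to 0.67 and holds 0, so the effect of MSC on IL18R1 was not shown to differ between the settings, though a difference as large as the fall of IL18R1 with ceftaroline also lies inside it.

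Ratios of reads within a library, which do not depend on library scaling, were compared over all 10 pairs by an exact permutation test, two-sided, adjusted over 20 tests. The log2 ratio of IL18R1 to IL1R2 reads averaged -6.35 ± 1.26 in NaCl lungs and -2.55 ± 0.78 in healthy lungs (SD, n = 7 each; difference -3.80, exact permutation adjusted p = 0.0117). It was also below healthy lungs in MSC lungs, by -3.11 (exact permutation adjusted p = 0.0175), and in ceftaroline lungs, by -2.78 (exact permutation adjusted p = 0.0311). The ceftaroline call was lost (exact permutation adjusted p = 0.0622) without ceftaroline replicate 1, 2, 4 or 6, or healthy replicate 1, 2, 3, 5 or 6, with differences from -2.79 to -2.40. Ceftaroline plus MSC lungs had a difference of -1.53 that missed the threshold (exact permutation adjusted p = 0.385). The ratio of IL1B to IL1R2 passed in none of the 10 pairs, with a difference of -1.11 for NaCl against healthy lungs (exact permutation adjusted p = 0.385) that was -0.50 without NaCl replicate 1.

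Rabbits of the same group differed widely, so relations between genes were taken on deviations from group means over the 28 pneumonia lungs, with permutation within groups (100000 resamples) and adjustment over 9 relations. IL1B and IL1R2 moved together (Pearson r = 0.74, Spearman rho = 0.66, permutation adjusted p = 0.000112 and 0.00128), and r was 0.68 without the 2 farthest lungs. Within groups r was 0.95 in ceftaroline plus MSC, 0.81 in ceftaroline, 0.67 in MSC, 0.37 in NaCl and 0.91 in healthy lungs. It was 0.68 over the 23 lungs without a title ending, and the 5 with one are too few.

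IL1R2 tracked summed neutrophil markers, whose sum was mostly S100A9 (60.9%) and S100A8 (35.6%), with r = 0.94 and rho = 0.93 (permutation adjusted p = 4.5e-05 for both). Without the 2 farthest lungs r was 0.93, and it was 0.93 without title endings. For IL1B the same relation gave r = 0.82 and rho = 0.76 (permutation adjusted p = 6e-05 and 0.00012), 0.76 without the 2 farthest lungs and 0.79 without title endings. IL18R1 gave r = 0.27 and rho = 0.13 with neutrophil markers (permutation adjusted p = 0.128 and 0.526).

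CD14 made up 44.3% of the summed monocyte and macrophage markers. These markers gave r = 0.84 and rho = 0.84 with IL1R2 (permutation adjusted p = 4.5e-05 for both), 0.81 without the 2 farthest lungs and 0.83 without title endings. With IL1B they gave r = 0.54 and rho = 0.57 (permutation adjusted p = 0.011 and 0.00722), 0.63 without the 2 farthest lungs, but 0.32 without title endings. With IL18R1 they gave r = 0.37 and rho = 0.33 (permutation adjusted p = 0.115 and 0.161). IL18R1 with IL1B gave r = 0.42 and rho = 0.24 (permutation adjusted p = 0.0386 and 0.309) and 0.19 without title endings, and with IL1R2 r = 0.30 and rho = 0.20 (permutation adjusted p = 0.124 and 0.373). These pooled values join groups of opposite sign. IL18R1 with IL1B gave r = 0.20 in ceftaroline plus MSC, -0.62 in ceftaroline, 0.63 in MSC and 0.67 in NaCl lungs. With neutrophil markers IL18R1 gave r = -0.01 in ceftaroline plus MSC, -0.79 in ceftaroline, 0.64 in MSC and 0.48 in NaCl lungs, 7 lungs each. Differences between groups in r were not tested.

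**Figure D4:**
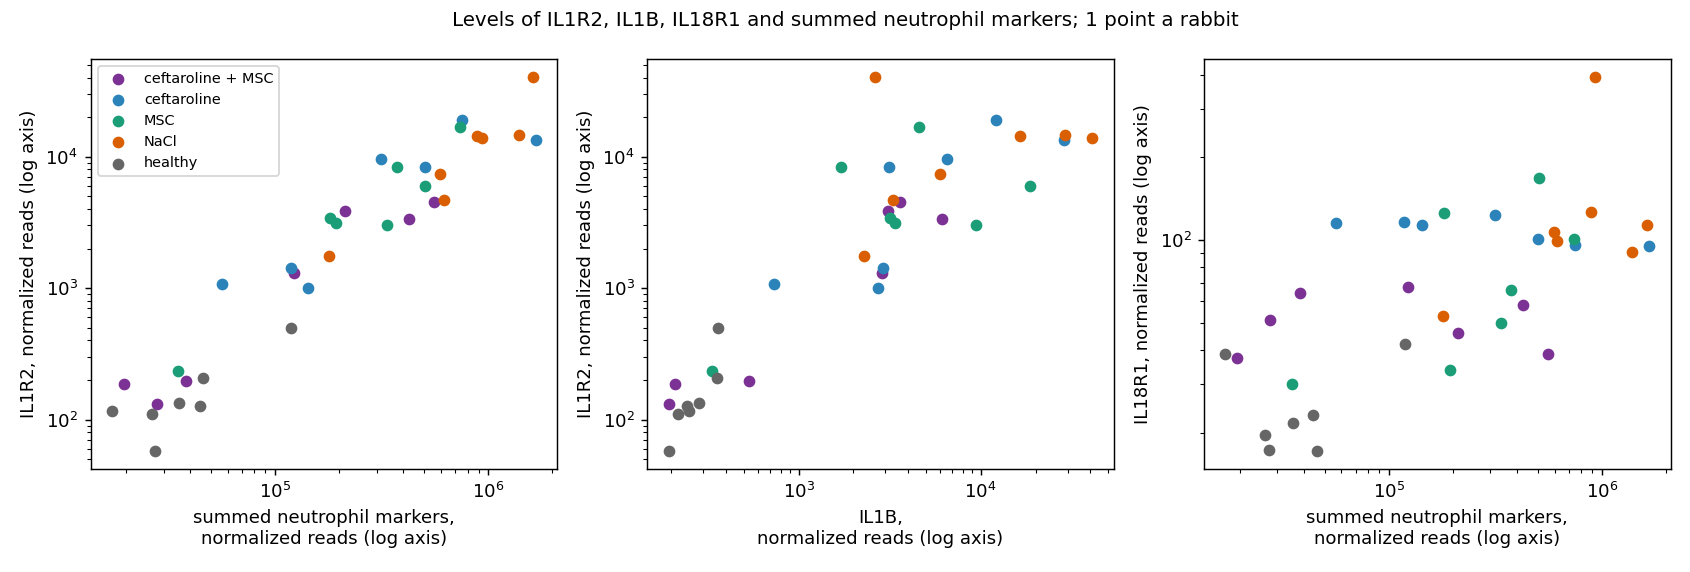
IL1R2 against summed neutrophil markers (left) and against IL1B (middle), and IL18R1 against summed neutrophil markers (right), in normalized reads on log axes, 1 point a rabbit colored by group. IL1R2 climbs with the markers in every group, while IL18R1 follows them with r = -0.79 in ceftaroline lungs, within a narrow span of 95.6 to 123, and with r = 0.64 in MSC lungs.

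Of 6638 genes searched over the same 28 lungs, those most like IL1B in deviation were IL1A (r = 0.96), the chemokines CCL4 (r = 0.94) and CXCL8 (r = 0.93), NFKB2 (r = 0.93), a subunit of NF-kB, and HRH4 (r = 0.92), a histamine receptor. Those most like IL1R2 were S100A9 (r = 0.94), TREML2 (r = 0.94), RIPOR2 (r = 0.94), the chemokine receptor CCR1 (r = 0.93) and TSKU (r = 0.93). S100A9, a calprotectin subunit, also made up most of the summed neutrophil markers. For IL18R1 the highest were weaker: LIPA (r = 0.60), lysosomal acid lipase, FN1 (r = 0.59), fibronectin, TGFA (r = 0.59), NRP2 (r = 0.58) and EED (r = 0.57). These values describe the same libraries and carry no test.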

How the data were processed

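Stranded messenger RNA libraries of rabbit lung were read from 1 end, with bcl2fastq2 2.18.12 for demultiplexing and Cutadapt 1.15 for trimming, per the labels' protocols. TopHat2 2.1.1, featureCounts 1.5.2 and DESeq2 1.24.0 are named in the submitters' processing notes. The authors deposited 4 tables, each with a signal per library (normalized reads) and, per the file headers, a log2 fold change with its SE, the Wald statistic as a score, and raw and adjusted p-values. Every signal value was a whole multiple of its column's step (100%, relative tolerance 1e-06), so whole reads were recovered. In 11 rows the symbol differs between tables, none of them a gene named here. For genome build and annotation, the entry is: not given in the sources used here.

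limma 3.58.1 in R 4.3.3, with an intensity trend, was run on log2(value + 1), for genes reaching 10 in 7 or more of the libraries compared, two-sided, with Benjamini-Hochberg adjustment over all genes tested and a threshold of 0.05. The authors' 4 pairs used the deposited values and other pairs a common median-of-ratios scale. edgeR 4.0.16 and DESeq2 1.42.0 on recovered reads were alternatives. The fitting steps were tested on simulated data with the same dispersion for every gene. That setting cannot show how calls behave for genes as variable as IL1B and IL1R2. The members, lists and alternatives were chosen with earlier results of these data known. Named genes were the 3 members, all measured receptors and ligands, the largest called rise and fall of 3 other lists, and the 5 genes most like each member. Replicates are rabbits, numbered in accession order, and p-values measure the spread between them.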

Additional observations from a re-analysis of the deposited data

Results flagged for a closer look

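Among 15 combinations of a gene and a group, 1 held a library far from the others on the log2 scale: IL1R2 in MSC replicate 6, at 236 normalized reads, the lowest of its group. Its gap to the next lung was 0.598 of the range of the group, above Dixon's 95% critical value for 7 samples. MSC replicate 6 carries the title ending PG, as does MSC replicate 7. Chance flags about 1 in 20 groups.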

How the results depend on the processing

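Of the recalculations of a gene's change that left no single library out, 271 kept direction and side of the threshold, 13 lost the call and 4 changed sign. Lost calls were IL18R1 in ceftaroline plus MSC against ceftaroline in one fit of all 5 groups (-1.08), and IL1B in ceftaroline plus MSC against NaCl without the 1 S00-marked NaCl library (-2.41). In ceftaroline plus MSC against healthy lungs, title ending as a covariate and libraries without an ending both gave 2.39, 2.93 and 0.86 for IL1B, IL1R2 and IL18R1. In MSC against healthy lungs, IL18R1 gave 1.53 without endings, and with endings (chosen after seeing the data) IL1B, IL1R2 and IL18R1 gave 1.44, 3.13 and 0.93. Changes of sign were in MSC against ceftaroline, IL1B 0.43 and IL1R2 0.20, under both treatments of the ending. The cause was not tested.

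The labels do not say whether title numbers pair the ceftaroline plus MSC and ceftaroline lungs. Same-number correlations, which cannot decide it, ran from -0.38 to 0.48. Of the ceftaroline plus MSC lungs, 0 correlated best with their own number. With the replicate block IL18R1 was -1.09 (adjusted p = 0.193) and limma called 0 genes, against 4.

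Leaving out each lung in turn gave IL18R1 -1.16 to -1.01 in ceftaroline plus MSC against ceftaroline and -0.27 to 0.21 in ceftaroline against NaCl. IL1B ranged from -3.10 to -2.28 in ceftaroline plus MSC against NaCl, and from 1.82 to 2.65 against healthy, where IL1R2 ranged from 2.18 to 3.03. In MSC against ceftaroline IL1B ranged from -0.87 to 0.12 and IL1R2 from -0.70 to 0.32. The IL1B to IL1R2 ratio ranged from -0.43 to 0.56 in MSC against NaCl, from -0.39 to 0.26 in MSC against ceftaroline and from -0.32 to 0.59 in ceftaroline against NaCl. The IL18R1 to IL1R2 ratio ranged from -0.78 to 0.041 in MSC against ceftaroline, and from -3.15 to -2.40 in ceftaroline against healthy, where 9 of 14 omissions lost the call. Called genes in ceftaroline plus MSC against ceftaroline were 4 with limma, 11 with edgeR and 99 with DESeq2. Leaving out 1 lung gave 2 to 14 calls there, and 1 to 10 in ceftaroline plus MSC against MSC. In one fit of all groups MSC against NaCl gave 270 calls and ceftaroline against NaCl 320. With only 11 to 306 reads per library, IL18R1 is limited by depth.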
